A study of Drosophila melanogaster with 2 samples.

Results

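The regions described here lie on the euchromatic part of Drosophila melanogaster chromosome arm 2L. A peak caller listed them as enriched by an antibody against Deformed over a mock control. They are the regions of the larger of the 2 deposited lists that lie on 2L with their centre at or below position 21000000. This gave 729 regions of 3898 in the list, or 18.7%. The stricter list, called from the same libraries, held 159 such regions of 1079 and served as a check. Both libraries, 1 from the Deformed antibody raised in guinea pig and 1 from mock guinea pig IgG, came from wild-type Oregon R embryos of 5 to 9.5 hours, at stages 9 to 12. Eggs were laid over 4.5 hours and aged for 5 hours at 25 °C. Chromatin was taken from embryos as a whole, so cells that make Deformed were not separated from cells that do not. Neither library had a replicate, so no value below has a replicate error and no test between conditions was possible.

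Deformed is a Hox transcription factor, a homeodomain protein that specifies the maxillary and mandibular segments, from which mouthparts of the fly arise. Hox homeodomains bind short sequences with a TAAT core, often together with the cofactors Extradenticle and Homothorax, and act on enhancers that can lie far from the promoter they regulate. The best known Deformed targets, such as the cell death gene reaper and the limb gene Distal-less, lie on other arms. Arm 2L carries wingless and decapentaplegic, which encode signalling ligands that pattern the embryonic segments, and sloppy paired, odd skipped and paired, which encode segmentation transcription factors. Which of the regions lie at these genes is not reported, because no gene positions on the build of the region coordinates, which the sources used here do not name, were at hand.

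All 729 regions had an authors' false discovery rate (FDR) of 100%, and so did all 159 stricter regions. The peak caller, MACS, obtains this rate by swapping the antibody and control libraries and counting the regions that then reach a given score. A rate of 100% therefore means that the swap gave at least as many regions that strong. Over the whole larger list 0.539% of regions had a rate under 100%, and over the stricter list 1.85%. None of the euchromatic 2L regions was among them, so their positions and values describe a called list and do not establish binding sites.

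The regions were short and held few tags, as the aligned reads counted by the caller are called. Their median length was 199 bases, with quartiles of 166 and 239 and a range from 108 to 1340. The tag count had a median of 21 and ran from 13 to 786, and its quartiles were 18 and 27. Between 15 and 30 tags were found in 603 regions, 82.7% of the set. A count of 21 tags has an exact 95% Poisson interval of 13.0 to 32.1, which covers counting error only and is wider than the distance between the quartiles of the whole set. Most regions therefore could not be told apart by their tag counts at this depth, which was 15547495 filtered Deformed tags and 12694075 filtered control tags.

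Fold enrichment, the authors' ratio of tags at the region's summit to the local background, was also narrowly spread. Its median was 4.41, with quartiles of 3.93 and 4.84, and it ran from 2.73 to 7.08. There were 24 regions with a fold of at least 6, and 5 regions had a fold under 3. The significance score, the negative log10 of the p-value multiplied by 10, had a median of 35.39 just above the list's floor of 30, and 350 regions, 48.0%, scored under 35. A score of at least 40 was reached by 200 regions, or 27.4%, beside 33.8% of the whole larger list. Only 27 regions scored at least 60 and only 6 at least 80. Tags and length rose together, with a Spearman rho of 0.94 over 729 regions, whereas fold and tags had a rho of -0.22. Both measures of such a pair were given by the caller for the same region from the same libraries, so these correlations only describe the list.

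Per base, most regions were not rich in tags. The regions together held 17984 tags on 155 kb, which is 0.116% of the filtered Deformed tags (95% exact binomial interval 0.114 to 0.117) on 0.129% of the effective genome of 120 Mb that the authors set, a ratio of 0.894. They covered 0.739% of the 21 Mb. The set as a whole held 11.6 tags per 100 bases, against 13.0 for the filtered library spread over the effective genome. Only 33 of the 729 regions, 4.53%, lay above that genome-wide mean, beside 15.8% of the whole larger list. The other 696 lay below it although no region of the set had a deposited fold under 2.73. The fold compares the summit with a background the caller set, and the mean here covers the whole region, so they are different quantities. The reason for the gap between them was not tested.

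**Figure D1:**
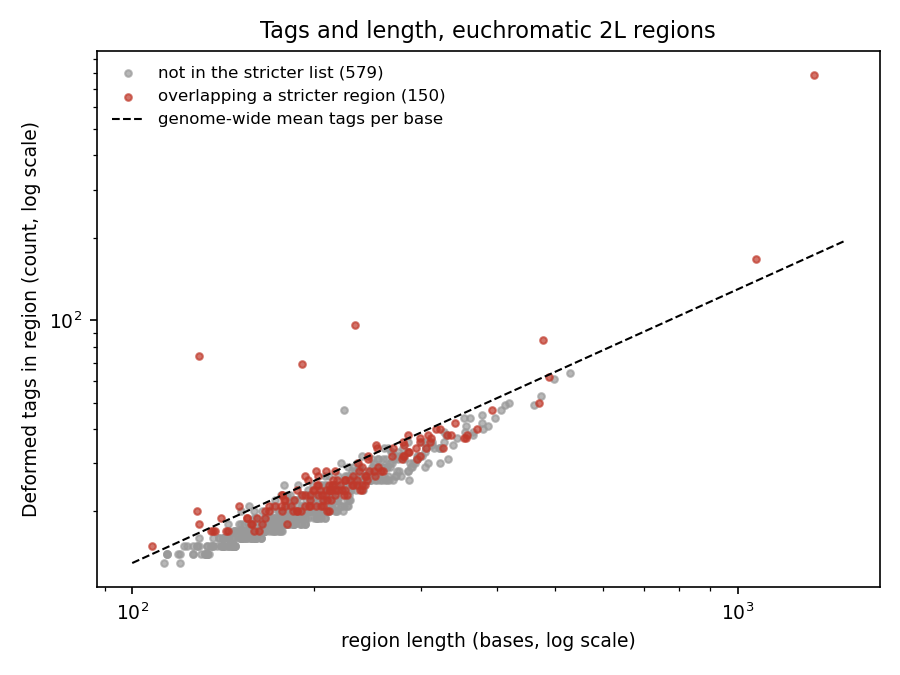
Each point is 1 of the 729 euchromatic 2L regions of the larger list, with its length in bases on the x axis and its Deformed tag count on the y axis, both on log scales; red points overlap a stricter region, and the dashed line marks the genome-wide mean of 13.0 tags per 100 bases. Most points follow a line just under the dashed one, and the few far above it include the region with 786 tags on 1340 bases.

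The region with the highest score was also the longest and the one with most tags. It lay at 2L:8428479-8429818, with 786 tags on 1340 bases (95% Poisson interval 732 to 843), a score of 193.53 and a fold of only 2.83. At 58.7 tags per 100 bases it was the densest of the set, and it alone held 4.37% of the tags of all 729 regions. Without it the set held 11.2 tags per 100 bases. The region ranked second by score, at 2L:17986814-17987885, was 1072 bases long with 168 tags (144 to 195), a score of 134.09 and a fold of 4.22. No other region had 100 tags. Ranked by score, the region at 2L:17086917-17087405 came next, with 62 tags (47.5 to 79.5), a score of 98.37 and a fold of 4.51.

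The remaining 7 of the 10 highest-scoring regions had 28 to 50 tags, above the upper quartile of 27 but far below the 168 and 786 of the first pair. The one at 2L:6748407-6748659 joined a high score of 83.45 with a fold of 7, on 35 tags (24.4 to 48.7). The highest fold of all, 7.08, belonged to the region at 2L:20466464-20466856, with 47 tags (34.5 to 62.5) and a score of 81.97. The region at 2L:9129736-9129944 had a fold of 6.43 on 28 tags and a score of 69.31. Scores between these were found at 2L:7964085-7964383, 2L:16208377-16208845, 2L:15548588-15548868 and 2L:14920225-14920494, at 80.26, 72.94, 72.50 and 71.67, with folds from 4.67 to 5.54. All 10 regions overlapped a region of the stricter list, beside 125 of the 200 regions with a score of at least 40. Both lists come from the same libraries and the 10 were ranked by score, so this overlap is not independent support. The tag intervals of these 7 overlap each other, and their order by tags was not tested.

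A high fold did not need many tags. Folds of 7 were also given to a region at 2L:11076870-11077033 with 18 tags (10.7 to 28.5) and a score of 38.67, and to one at 2L:14824019-14824214 with 21 tags (13.0 to 32.1) and a score of 41.76. These counts lie inside the bulk of the set. Several fold values also recurred. The 6 most frequent, 3.74, 4.2, 4.67, 5.14, 5.60 and 6.07, stood 0.46 or 0.47 apart and covered 235 regions, 32.2%, while the next most frequent value was shared by 9. A rank by fold therefore contains many ties, and 4.67 alone was held by 81 regions.

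Most of the regions from 20150915 to 20218246 had many tags per base. Beside the region with 786 tags, 4 regions had at least 20 tags per 100 bases, and all 4 lay within 66 kb. The neighbours at 2L:20152272-20152462 and 2L:20152549-20152781, separated by 86 bases, held 69 tags (53.7 to 87.3) and 96 tags (77.8 to 117). Their densities were 36.1 and 41.2 tags per 100 bases, at folds of 4.04 and 4.60. Another region, which ended 880 bases before them, at 2L:20150915-20151391, had 85 tags (67.9 to 105), 17.8 tags per 100 bases and a fold of 6.99. Farther along, 2L:20208725-20208948 held 47 tags (34.5 to 62.5) and 2L:20218118-20218246 held 74 tags (58.1 to 92.9) on only 129 bases, or 57.4 tags per 100 bases, at folds of 5.25 and 3.31. The sixth region of the stretch, at 2L:20165039-20165170, was ordinary, with 14 tags (7.65 to 23.5) and 10.6 tags per 100 bases. The 4 regions with at least 20 tags per 100 bases held 1.94 to 5.29 times the median of 10.8 over the set, while their folds, from 3.31 to 5.25, lay within the range of the other regions. Control tags at single regions were not analysed here, so whether the control was as dense at these places was not tested.

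The regions were spread over the whole arm, and unevenly. Over the 21 bins of 1 Mb the count ran from 12 to 53, with a median of 36 and a mean of 34.7 ± 10.02 (SD over bins). The lowest count was in the first Mb, at the telomeric end, and the highest counts were in the bins from 11 to 12 Mb and from 17 to 18 Mb. The first 10.5 Mb held 304 regions, 29.0 per Mb, and the second 10.5 Mb held 425, or 40.5 per Mb. In the stricter list the corresponding counts were 67 and 92. The regions themselves differed little along the arm: over 7 bins of 3 Mb the median tag count lay between 20 and 23, the median length between 191.5 and 206 bases and the median fold between 4.2 and 4.67.

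Neighbouring regions had a median distance between centres of 17.0 kb, with quartiles of 6.39 and 35.4 kb. The mean was 28.7 kb and the SD 36.3 kb, so the SD was 1.27 times the mean. In the stricter list the median distance was 78.7 kb and the SD 1.05 times the mean. Distances under 1 kb were found for 27 of the 728 pairs of neighbours in the larger list and distances under 10 kb for 258, or 35.4%. The closest centres were 281 bases apart, in a pair at 2L:4588783-4588951 and 2L:4589021-4589275 with 19 and 31 tags and a pair at 2L:13284669-13284850 and 2L:13284901-13285180 with 22 and 34. Only 69 and 50 bases lay between the members of these pairs.

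The longest stretch without a region ran from 85546 to 393795 near the telomere, a distance of 308 kb between the flanking centres. It was followed by 4310329 to 4588783, with 279 kb, and by 20703152 to 20932930, with 230.0 kb. The fourth, from 1033209 to 1256151, spanned 223 kb. None of these 4 stretches held a stricter region. Since 94.3% of the stricter regions overlapped a region of the larger list, this was largely set by how the stretches were chosen. Distances of at least 100 kb occurred 38 times and together made up 5.57 Mb of the arm. Which of these stretches hold few genes or little uniquely alignable sequence was not tested.

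**Figure D2:**
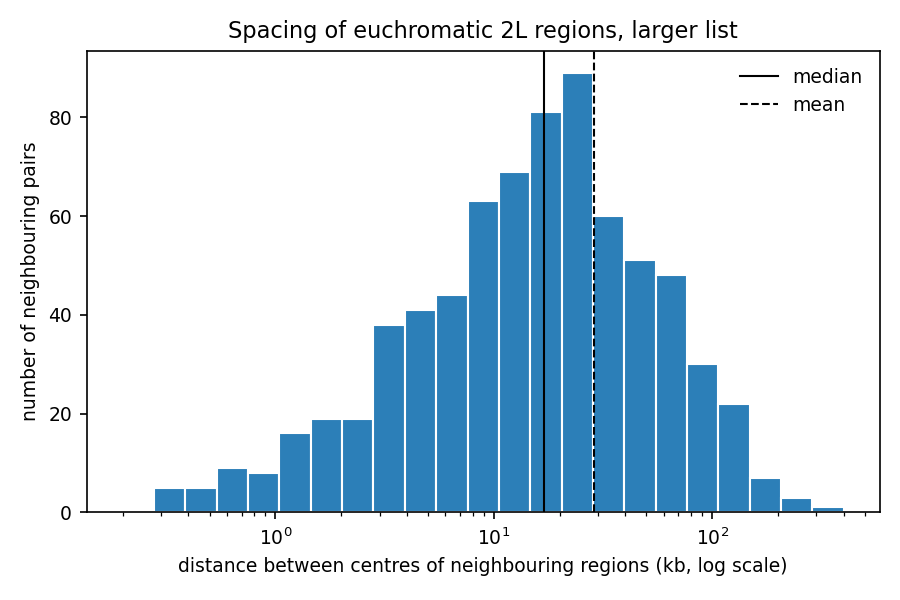
The histogram shows the distance in kb, on a log scale, between the centres of the 728 pairs of neighbouring euchromatic 2L regions of the larger list, with the number of pairs on the y axis. The median (solid line) lies at 17.0 kb and the mean (dashed line) at 28.7 kb, and the longest distance is 308 kb.

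The densest loci were found by counting region centres in 420 windows of 50 kb. No centre fell in 96 windows, 1 in 120, 2 in 90 and 3 in 62, and 52 windows, 12.4%, held at least 4. The 2 densest windows held 7 regions each. In 2300001 to 2350000 they had 15 to 38 tags, folds from 3.43 to 4.78 and scores from 31.36 to 61.76, and 3 of them overlapped a stricter region. In 19250001 to 19300000 they had 15 to 44 tags, folds from 3.45 to 6.57 and scores from 30.46 to 57.87, and 1 overlapped a stricter region.

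Within the window that starts at 2300001 the regions formed a tight group at the far end. From 2344180 to 2350099 there were 5 regions on 5.92 kb, the last of which lay just past the window. The strongest of them was the first, at 2L:2344180-2344510, with 38 tags (26.9 to 52.2), a fold of 4.78 and a score of 61.76. The next ones, at 2L:2345219-2345359, 2L:2348389-2348612 and 2L:2348948-2349155, held 15, 23 and 21 tags at folds of 4.67, 4.57 and 4.51. The last, at 2L:2349933-2350099, held 19 tags at the lowest fold of the group, 3.86. In the window that starts at 19250001 the values were more mixed. Its region at 2L:19285270-19285470 had 28 tags (18.6 to 40.5) and a fold of 6.57, whereas the region at 2L:19297135-19297531 had more tags, 44 (32.0 to 59.1), and a fold of only 3.45.

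A further 8 windows held 6 regions each. They started at 3700001, 11600001, 12150001, 13700001, 15150001, 15900001, 17300001 and 19600001. Their median fold lay between 3.795 and 4.67 and no region in them had more than 42 tags. Among the 10 densest windows, 3 held no stricter region: those starting at 12150001, 13700001 and 15150001, whose highest scores were 40.90, 35.98 and 37.02. The window starting at 19600001 held 1 stricter region, but none of its 6 regions overlapped it, and its highest score was 34.72. Of all 420 windows 295 held no stricter region, and 20.6% of all 729 regions overlapped one. The window starting at 11600001 was the one of these 8 with most stricter support, with 3 of its 6 regions overlapping the stricter list, up to 42 tags and scores up to 58.21. In the stricter list no window held more than 3 regions, and 6 windows held 3. Of these, 2300001 and 11600001 were also among the 10 densest of the larger list, and 4 were not. The latter started at 13950001, 14700001, 14900001 and 20150001, the last being the tag-dense place described above.

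**Figure D3:**
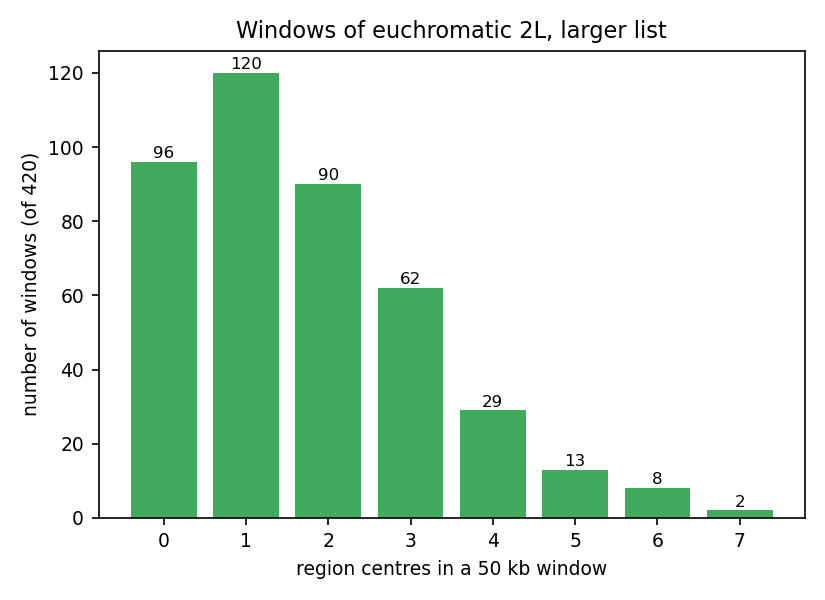
Bars give the number of 50 kb windows of euchromatic 2L, of 420, by the number of region centres of the larger list in them. The count falls from 120 windows with 1 region to 2 windows with 7.

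Groups were also formed by joining neighbours whose centres lay less than 10 kb apart. This left 302 regions alone, 41.4%, and 114 pairs, and gave 55 groups of at least 3 with 199 regions in all. The largest had 7 regions on 38.5 kb, from 15822487 to 15861034. Its tags ran from 15 to 61 and its folds from 3.53 to 4.67, and its regions with most tags, at 2L:15855829-15856325 with 61 and 2L:15860574-15861034 with 49, had the lowest folds, 3.53 and 3.61. Next came groups of 6 from 12160755 to 12192975 and from 15173396 to 15195289, which held at most 20 and 26 tags per region and no region that overlapped the stricter list. Among the 9 groups of at least 5, 4 had no such region. Of all 729 regions only 20.6% overlapped the stricter list, so groups without one are not unusual. The second highest-scoring region of the arm, with 168 tags, opened a group of 5 that reached to 18017064, and its 4 neighbours had only 18 to 22 tags.

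Regions at dense loci had medians close to those of lone ones. The 243 regions in windows with at least 4 had a median of 21 tags. Their median fold was 4.39 (quartiles 3.965 and 4.915) and their median score 35.43. The 120 regions alone in their window had a median of 22.5 tags, a median fold of 4.295 (quartiles 3.788 and 4.678) and a median score of 34.84. Overlap with the stricter list was found for 19.8% of the former and 15.8% of the latter. It was highest, at 22.7%, for the 366 regions in windows with 2 or 3. The quartile ranges of the fold overlap, and no test over regions was made, because regions of 1 pair of libraries are not replicates.

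The check against the stricter list gave 150 shared regions at an overlap of at least 1 base. These were 20.6% of the 729 regions, beside 26.4% of the whole larger list, and 94.3% of the 159 stricter regions. The same start and end were found for 55, and 53 of these also had the same tags, fold and score. In 94 places the stricter region was the shorter, by a median of 37 bases. The other 9 stricter regions, with 15 to 24 tags, had no counterpart in the larger list. Conversely, 75 of the 200 regions with a score of at least 40, or 37.5%, were missing from the stricter list, although 40 is the score of its cutoff. The highest of these, at 2L:1640908-1641286, had a score of 65.16 with 45 tags and a fold of 4.37. The missing 75 had a lower median fold than the 125 that were shared, 4.21 against 4.96, at similar median tags of 27 against 25. They were also longer, with a median of 248 against 215 bases.

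Euchromatic 2L was close in its median tags and fold to 3L and 3R outside the 2 Mb next to the centromere, and less so to 2R in its share of tag-dense regions. It held 34.7 regions per Mb, 2R held 26.5 (507 regions), 3L held 31.9 (719), 3R held 33.5 (866) and X held 15.6 (319). The median tag count was 21 on 2L and 3L, 22 on 3R, 23 on 2R and 19 on X. The median fold was 4.41 on 2L, 4.48 on 3L, 4.35 on 3R, 4.23 on 2R and 4.67 on X. Regions above the genome-wide mean of tags per base made up 4.53% on 2L, 5.29% on 3L, 2.77% on 3R, 10.1% on 2R and 18.5% on X. The highest fold was 7.08 on 2L, 8.83 on 3L, 7 on 3R, 10.23 on 2R and 25.21 on X. Regions with an FDR under 100% numbered 0 on 2L and 3R, 1 on 3L, 3 on X and 5 on 2R. All these are values of the larger list. In the stricter list the median tag count was 22 on 2L, 23 on 3L and 3R, 25 on 2R and 36 on X. The median fold there was 4.91 on 2L, 4.99 on 3L and 3R, 4.815 on 2R and 6 on X. Regions above the genome-wide mean made up 24.5% on 2L, 26.1% on 3L, 28% on 3R, 40% on 2R and 66.7% on X. The place of X in tags thus depends on the list. The arms are set side by side without a test.

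In the larger list the centromeric end of the same arm, above 21 Mb, had higher values of each of these measures, which were also not tested. It held 144 regions on 2 Mb, 72.0 per Mb, and there the median was 29 tags per region, between quartiles of 19.75 and 53.25, and the fold was 4.67 in the median. Of these, 50.7% lay above the genome-wide mean of tags per base and 27.1% had at least 50 tags, against 1.65% (12 regions) of the euchromatic ones. The 144 regions were not spread evenly over the 2 Mb. A limit of 22 Mb gave 765 regions against 729 at 21 Mb, so most of the 144 lay above 22 Mb. The last region inside, at 2L:20958458-20958750, had 30 tags, a fold of 3.36 and a score of 38.83, and the first outside, at 2L:21015259-21015427, had 18 tags, a fold of 4.52 and a score of 30.42. The next one outside, at 2L:21036013-21036302, had 32 tags, a fold of 4.61 and a score of 59.24.

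**Figure D4:**
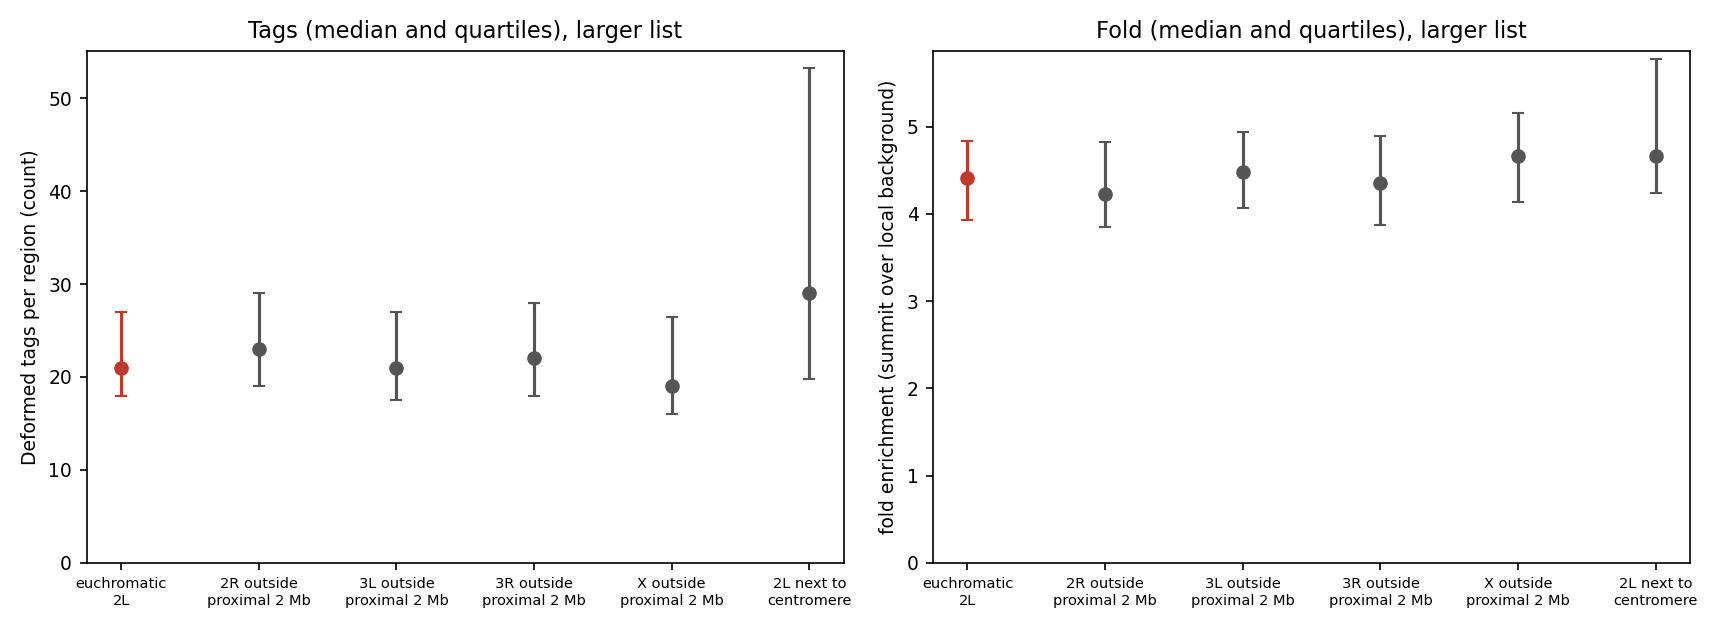
Points are medians and bars run from the lower to the upper quartile of tags per region (left) and fold enrichment (right), over regions of the larger list on euchromatic 2L (red), on 2R, 3L, 3R and X outside the 2 Mb next to the centromere, and on 2L next to the centromere. Euchromatic 2L, with 21 tags and a fold of 4.41, lies close to 3L and 3R, and the upper quartile of tags reaches 53.25 next to the 2L centromere.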

How the data were processed

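The submitters' processing notes name Bowtie as the aligner of the ChIP-seq reads of the 1 Deformed and 1 control library. Neither its version nor a genome build is given in the sources used here. Per the file headers, regions were called with MACS 1.4.0beta at p-value cutoffs of 0.001 (larger list) and 0.0001 (stricter list), with a fragment length of 50 bases, a tag size of 40 bases, local backgrounds over 1000 and 10000 bases and at most 4 (Deformed) or 3 (control) tags per position. After this filter 15547495 of 20112283 Deformed tags and 12694075 of 13016695 control tags were left. The deposited tag counts are whole numbers per region, the deposited fold is a ratio, the deposited score is the negative log10 of the p-value times 10, and the deposited FDR is a percent. All are the caller's own values.

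From these lists, regions of 2L with a centre at or below 21000000 were taken, and spacing, 50 kb windows, groups within 10 kb and overlaps were computed with scipy 1.17.1, pandas 2.3.3 and numpy 2.4.6 under Python 3.11.15, and drawn with matplotlib 3.10.9. The 6 counting steps checked on a planted list of 260 regions returned the planted numbers. Intervals are exact Poisson or exact (Clopper-Pearson) binomial at 95% and cover counting error only, since each group holds 1 library. Tags also carry no molecular identifiers. The other arms were limited to what lies outside the 2 Mb next to the centromere. Regions named are the 10 highest-scoring, those with most tags, the members of the densest windows, the longest stretches without a region and those at the 21 Mb limit; the high-fold regions, the tag-dense group from 20150915 to 20218246, the closest pairs, the groups within 10 kb and the highest-scoring region missing from the stricter list were added after values were seen. The rule asked for the 5 densest windows; ties at 6 regions made them 10. Members and lists were chosen with earlier results of these data known. The gene table at hand is of Release 6 plus ISO1 MT. All 50 genes of the 2 lists made for this arm are on 2L there, but on 2R 802 of 3649 genes start past the last deposited region, so the build appears to differ. On 2L only 11 of 3508 do, which does not show which build was used there. The table's positions were therefore not used and no region was given to a gene. For the same reason no sequence is shown.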

Additional observations from a re-analysis of the deposited data

How the results depend on the processing

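No paired analysis was possible because each group holds 1 library and no result comes from a test between groups. The list and its cutoff changed most values. In the stricter list there were 159 regions, with a median length of 189 bases, a median fold of 4.91 and a median distance of 78.7 kb, and 0 windows of 50 kb held at least 4 regions. In the larger list at a score of at least 40 there were 200 regions, with a median of 26 tags, a length of 235 bases, a fold of 4.67 and a distance of 55.3 kb, and 1 window held at least 4. With 100 kb windows 90 held at least 4, by construction. Of the 243 regions in windows with at least 4, 28.0% scored at least 40, close to the 27.4% of all 729, which include them. The share was 29.0% in windows with 2 or 3 regions and 21.7% for regions alone in their window. Windows shifted by 25 kb gave 61 in place of 52. Limits of 20 Mb and 22 Mb gave 697 and 765 regions, and merging centres less than 1 kb apart gave 702. Under these 3 settings the median tag count stayed at 21 and the median length close to 199 bases. The median fold lay between 4.41 and 4.445 and the median distance between 16.9 and 17.72 kb. These 3 sets hold mostly the same regions as the main one, so they are a weak check. Shared regions were 149 when 50% of both lengths had to overlap and 150 with centres within 200 bases. Leaving out the region with most tags, an alternative chosen after seeing the data, moved the tags per 100 bases from 11.6 to 11.2. Depth limits every single tag count, and with 1 library per group the spread between embryo collections is unknown.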
